A study of Mus musculus with 50 samples.

Results

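The 34 genes described here act in the G2 phase and in mitosis, and their transcripts were measured in 50 mammary gland (MG) tumors. They were chosen by gene symbol from the deposited expression table of 37701 genes, and all 34 had a row and passed the filter of a mean RPKM of at least 0.5, as did 16733 genes in all. An RPKM value counts reads for each kilobase of a gene and scales them by the size of its library. By role, the list holds 2 genes of chromosome structure and DNA (Mki67, Top2a), 4 of the cyclins and CDK1 (Ccna2, Ccnb1, Ccnb2, Cdk1), 6 mitotic kinases and checkpoint genes (Bub1, Bub1b, Ttk, Aurka, Aurkb, Plk1) and 4 of the centromere and kinetochore (Cenpa, Cenpe, Cenpf, Ndc80). The remainder are 6 kinesin motors (Kif11, Kif15, Kif20a, Kif23, Kif2c, Kif4), 5 spindle-associated proteins (Tpx2, Nusap1, Prc1, Hmmr, Dlgap5), 3 genes of cytokinesis and the passenger complex (Birc5, Anln, Ect2), 3 of anaphase entry (Cdc20, Ube2c, Pttg1) and the transcription factor Foxm1.

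All tumors arose in female p53R270H/+WAPCre mice, in which Cre driven by the whey acidic protein (WAP) promoter turns on a heterozygous mutant p53 allele in MG epithelium. The vehicle group therefore carries the same mutation. From 8 weeks of age the mice received subcutaneous injections every other day of vehicle, insulin, the insulin analogues glargine or X10, or insulin-like growth factor 1 (IGF1), and there were 10 tumors in each of the 5 groups. Tumors were collected at 1 cm3, 24 h after the last injection. Per the study's methods, tumors like those after an epithelial to mesenchymal transition (EMT) were selected, with a latency close to their group's median. The labels title the vehicle tumors untreated, give no dose, and number each mouse; single tumors are named here by their titles (Untreated_174 is a vehicle tumor). Sample identifiers are listed in group order, and the labels give no sequencing run. A run effect therefore could not be checked or told apart from a treatment effect. No batch or litter is labelled either, and p-values measure the spread between these tumors.

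Cells that enter mitosis switch on a common set of genes: cyclin B with CDK1 starts mitosis, the Aurora and Polo kinases build the spindle, checkpoint kinases wait for every chromosome to attach, and CDC20 with the anaphase-promoting complex then destroys cyclin B and securin. Most of these transcripts peak in G2 and M and are low in resting cells, so in bulk tissue they are widely used as a readout of how many cells divide. In a bulk tumor, however, fewer dividing cells and less RNA per cell cannot be told apart.

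Such genes are known for 2 short promoter elements, the cell cycle genes homology region (CHR, TTTGAA) and the CCAAT box. In RefSeq promoter windows of GRCm38.p6, from 250 bases before to 50 bases after the start, 28 members had an entry, and Foxm1, Ccna2, Aurkb, Kif20a, Tpx2 and Dlgap5 had none. TTTGAA occurred on either strand in 22 of the 28 (78.6%), against 20.2% of 27025 genes with a window. CCAAT occurred in 21 (75%), against 41.1% of all. Both were in 1 window in 18 members (64.3%), against 7.97% of all genes and 5.9% of the 10404 genes tested here that had a window. A match is a description of letters and not a binding site, and the motifs may overlap by 1 base. The 130 bases before the start are printed for 7 members whose levels are given further on, to show how the elements lie, with TTTGAA (or its reverse complement, TTCAAA) and likewise CCAAT (or ATTGG) in capitals.
Cdk1 (chr10:69352913-69353042, minus strand): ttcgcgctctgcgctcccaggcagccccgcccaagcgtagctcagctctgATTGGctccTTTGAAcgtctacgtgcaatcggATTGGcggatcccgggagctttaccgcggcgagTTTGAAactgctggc
Cdc20 (chr4:118437344-118437473, minus strand): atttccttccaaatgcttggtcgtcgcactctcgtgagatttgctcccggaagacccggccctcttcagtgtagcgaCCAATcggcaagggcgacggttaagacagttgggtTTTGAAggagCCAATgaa
Top2a (chr11:99024190-99024319, minus strand): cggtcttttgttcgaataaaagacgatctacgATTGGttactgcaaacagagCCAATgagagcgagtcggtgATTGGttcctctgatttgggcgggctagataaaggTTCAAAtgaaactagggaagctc
Kif11 (chr19:37376252-37376381, plus strand): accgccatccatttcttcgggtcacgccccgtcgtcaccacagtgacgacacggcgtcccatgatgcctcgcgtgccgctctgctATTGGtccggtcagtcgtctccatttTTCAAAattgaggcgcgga
Ccnb1 (chr13:100786487-100786616, minus strand): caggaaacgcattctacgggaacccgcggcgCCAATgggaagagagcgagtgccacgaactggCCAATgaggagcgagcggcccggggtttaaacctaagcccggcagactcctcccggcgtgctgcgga
Mki67 (chr7:135716380-135716509, minus strand): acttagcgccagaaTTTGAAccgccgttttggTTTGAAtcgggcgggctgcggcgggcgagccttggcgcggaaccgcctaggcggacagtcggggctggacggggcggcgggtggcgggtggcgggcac
Birc5 (chr11:117849107-117849236, plus strand): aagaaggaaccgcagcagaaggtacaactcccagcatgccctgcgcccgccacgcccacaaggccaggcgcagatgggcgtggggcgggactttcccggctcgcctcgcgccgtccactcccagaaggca
Cdk1, Cdc20, Top2a and Kif11 hold both elements within these bases. In Ccnb1 only CCAAT and in Mki67 only TTTGAA lies there, and the Birc5 window holds neither set of letters. Levels are also given for Plk1, Aurka, Bub1 and Kif15, whose sequences are not printed and hold only 1 of the elements in these bases. That is CCAAT in Plk1, Aurka and Bub1 and TTCAAA in Kif15. TTTGAA lies after the start in Plk1 (at 30 bases) and Aurka (at 32).

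Libraries held 26.6 to 51.9 M reads (median 40.9), as recovered from the steps between RPKM values. Each member rested on at least 256 reads in its lowest tumor, among the 32 with a recovered gene length. Epithelial markers were present at a summed level of 15.6 to 11030 RPKM (11 genes, none at 0 in every tumor), and mesenchymal markers at 1462 to 7896 RPKM (8 genes). Untreated_174 and X10_105 had the highest epithelial sums (11030 and 4867 RPKM), with mesenchymal sums of 1462 and 2119 RPKM, and every comparison was also run without both. The most alike tumors of different groups, insulin_21 and glargine_70, correlated at r = 0.98 over genes.

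Levels between genes were compared on the scale of the longest annotated transcript, since the lengths behind the deposited values were the median transcript length for many genes. On that scale, Top2a, which untangles DNA before chromosomes separate, was highest at 50.4 mean RPKM, from 328 on the deposited scale. It was followed by the contractile ring scaffold Anln (30.7), the ubiquitin-conjugating enzyme Ube2c (29.8) and the cyclin Ccnb2 (28.5). For Anln the recovered length (5421 bases) exceeded the longest annotated transcript (4605 bases). Its deposited mean was 26.1 RPKM, so its place in this order depends on the length used. Kif15, a kinesin of the spindle, was lowest (4.13), and the kinetochore protein Cenpf was close to it (4.56). Mki67 and Cenpe had no recovered length and were not placed in this order.

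The first question was whether mitotic transcripts differed with treatment. No member was called in any of 9 comparisons at an adjusted p under 0.05 (limma with Benjamini-Hochberg adjustment over 16733 genes), and limma voom on recovered reads also called none of the 32 members it could test, without Mki67 and Cenpe. Deposited RPKM values are given next as medians over 10 tumors, with the lowest and highest in brackets, and the plot of 12 members by treatment shows each tumor. Mki67, which encodes the Ki-67 antigen used to stain dividing cells, had a median of 15.6 RPKM (7.41 to 25.9) in vehicle, 20.1 (14.7 to 28.7) in insulin, 22.4 (9.97 to 29.1) in glargine, 18 (11.9 to 27.2) in X10 and 17.6 (6.88 to 27.4) in IGF1 tumors. The groups overlapped, with the lowest tumor of all in IGF1 and the highest in glargine. Top2a had a median of 321 RPKM (135.7 to 499) in vehicle, 271 (190 to 448) in insulin, 307 (239 to 393) in glargine, 382 (157.9 to 599) in X10 and 333 (140 to 593) in IGF1 tumors. Its spread was widest in the vehicle, X10 and IGF1 groups, whose ranges enclosed those of insulin and glargine. Foxm1, the factor that drives many G2 genes, had a median of 60.7 RPKM (44.2 to 110.97) in vehicle, 53.4 (41.6 to 76.5) in insulin, 64.3 (31.5 to 84.2) in glargine, 59.3 (30.6 to 81.1) in X10 and 64.5 (28.5 to 110) in IGF1 tumors. The medians lay within the range of each of the other groups.

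**Figure D1:**
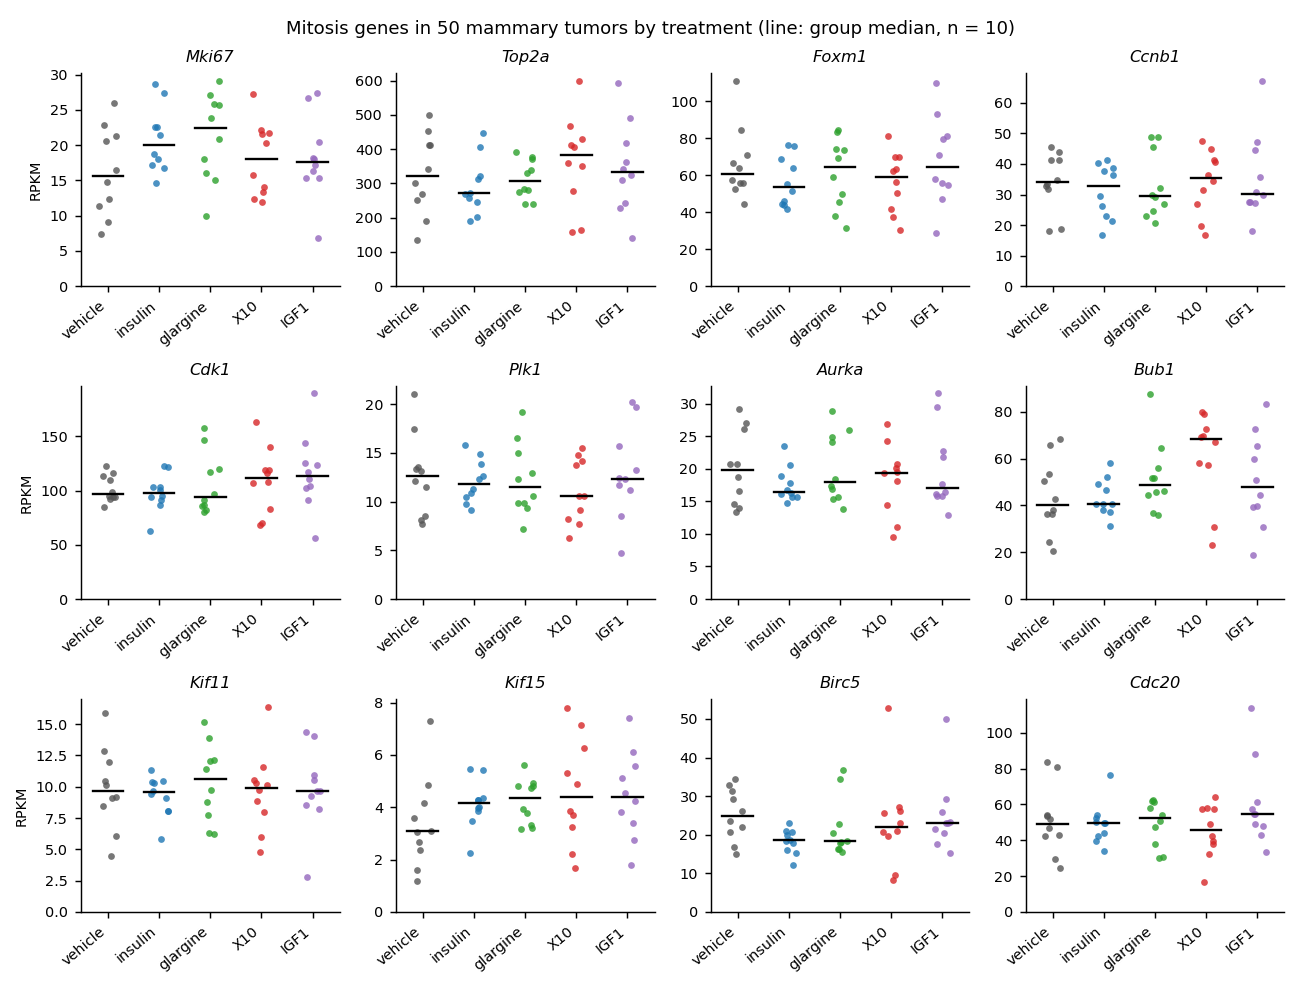
RPKM (linear axis from 0) of 12 mitosis genes in each of 50 tumors by treatment; points are tumors and lines are group medians (n = 10). Every group overlaps every other for each gene; for example, Mki67 spans 7.41 to 25.9 in vehicle and 6.88 to 27.4 in IGF1 tumors.

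Among the genes that start mitosis, the cyclin Ccnb1 was at 34 RPKM (18.2 to 45.6) in vehicle, 32.9 (16.9 to 41.2) in insulin, 29.6 (20.5 to 48.8) in glargine, 35.3 (16.7 to 47.6) in X10 and 30.3 (18 to 67.2) in IGF1 tumors. Its partner kinase Cdk1 was at 96.7 RPKM (84.9 to 122) in vehicle, 97.8 (62.8 to 123) in insulin, 94 (80.4 to 157.6) in glargine, 112 (68.6 to 163) in X10 and 114 (56.5 to 190) in IGF1 tumors. Cdk1 varied least of all members (SD 0.34 on the log2 scale over 50 tumors), and its narrowest range was in vehicle tumors. The kinase Plk1, which acts from mitotic entry to cytokinesis, was at 12.6 RPKM (7.74 to 21) in vehicle, 11.8 (9.15 to 15.8) in insulin, 11.5 (7.22 to 19.2) in glargine, 10.6 (6.23 to 15.5) in X10 and 12.3 (4.72 to 20.2) in IGF1 tumors. The spindle kinase Aurka was at 19.8 RPKM (13.4 to 29.1) in vehicle, 16.5 (14.8 to 23.6) in insulin, 17.9 (13.9 to 28.8) in glargine, 19.4 (9.51 to 26.9) in X10 and 17 (12.9 to 31.6) in IGF1 tumors. For both kinases, as for Ccnb1 and Cdk1, the 5 ranges overlapped and the group medians lay well inside them.

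For the later steps, the motor Kif11, which pushes spindle poles apart, was at 9.67 RPKM (4.47 to 15.9) in vehicle, 9.54 (5.83 to 11.3) in insulin, 10.6 (6.2 to 15.2) in glargine, 9.93 (4.8 to 16.3) in X10 and 9.65 (2.76 to 14.4) in IGF1 tumors. The motor Kif15 was at 3.07 RPKM (1.2 to 7.29) in vehicle, 4.15 (2.25 to 5.48) in insulin, 4.34 (3.16 to 5.62) in glargine, 4.38 (1.67 to 7.81) in X10 and 4.39 (1.78 to 7.41) in IGF1 tumors, and its lowest median was in vehicle tumors. The passenger complex subunit Birc5 (survivin) was at 24.8 RPKM (15.1 to 34.5) in vehicle, 18.5 (12.2 to 22.9) in insulin, 18.3 (15.6 to 36.7) in glargine, 22 (8.39 to 53) in X10 and 23 (15.3 to 50) in IGF1 tumors. In insulin tumors Birc5 stayed below the vehicle median in every tumor, but the vehicle range reached below the insulin median. Cdc20, the activator of the anaphase-promoting complex, was at 49.2 RPKM (24.4 to 83.9) in vehicle, 49.6 (34.3 to 76.7) in insulin, 52.6 (30 to 62.6) in glargine, 45.6 (16.8 to 64.1) in X10 and 54.8 (33.2 to 114) in IGF1 tumors. Its highest tumor, IGF1_135, stood above the others while the groups overlapped.

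Insulin against vehicle tumors gave 18 members with a higher estimate (54.5% of all genes) and 16 with a lower one, and 0 of 34 called, as were 0% of all genes. At an unadjusted p under 0.05 there were 2 members, against 11.1% of all genes. Mki67 was higher by 0.42 (log2, SE 0.21, 95% confidence interval 0.0067 to 0.84, adjusted p = 0.44) and Birc5 lower, with a difference of -0.43 (SE 0.21, interval -0.85 to -0.00064, adjusted p = 0.45). The median difference over the 34 members was 0.017, beside 0.026 over all genes, and came to -0.075 without Untreated_161 and to 0.084 without Untreated_162. Cyclins and CDK1 had 1 of 4 higher, kinesins 4 of 6. With the transcript length covariate described further on, 11 of 34 members were higher, with a median of -0.073 and Mki67 at 0.245. Epithelial markers were lower in insulin tumors by estimate, 11 of 11 with a median of -1.46 and 0 called. Leukocyte markers were higher in 14 of 15, with a median of 0.489 and 0 called. With the epithelial, leukocyte, adipocyte and skeletal muscle marker scores together as covariates, the members' median was -0.15.

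In glargine tumors 29 of 34 members had a higher estimate than in vehicle tumors, against 54.1% of all genes. None was called (0% of all genes), and none reached an unadjusted p under 0.05 (6.23% of all genes). The largest departures in each direction by p were Mki67 (0.41, SE 0.21, interval -0.0033 to 0.83, adjusted p = 0.79) and Birc5 (-0.23, interval -0.65 to 0.20, adjusted p = 0.88). All 6 kinesins and all 5 spindle-associated genes had estimates above 0, with role medians of 0.10 and 0.27. So had 4 of 4 centromere genes (median 0.089) and 2 of 2 genes of chromosome structure (0.214), while each remaining role had a member below 0. The median over members was 0.096, beside 0.021 over all genes, and came to 0.015 without Untreated_161, to 0.022 without Untreated_174 and to -0.0041 with marker scores as covariates. Epithelial markers were lower by estimate in 9 of 11, with a median of -0.40 and 0 called. Adipocyte markers were higher in 6 of 6, with a median of 1.02 and 0 called. Since members rise and fall together from tumor to tumor, their signs are not independent of each other.

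X10 against vehicle gave 19 members higher (44.4% of all genes) and 15 lower, with 0 called (0.0657% of all genes) and 1 at an unadjusted p under 0.05 (11% of all genes). This was Bub1, a kinase of the spindle checkpoint, with a difference of 0.47 (SE 0.22, interval 0.025 to 0.92, adjusted p = 0.43). Bub1 had a median of 40.2 RPKM (20.5 to 68.3) in vehicle, 40.6 (31.3 to 58.1) in insulin, 48.9 (35.7 to 87.5) in glargine, 68.2 (22.9 to 79.8) in X10 and 47.8 (18.8 to 83.5) in IGF1 tumors. In X10 tumors 8 stood at 57.5 RPKM or above and 2 at 30.6 or below, so that the group ranges overlapped. Pttg1 (securin) had the smallest p of those lower (-0.25, SE 0.17, interval -0.60 to 0.096, adjusted p = 0.60). The 3 genes of anaphase entry were all at lower estimates, with a median of -0.21. The median over all members was 0.034, beside -0.034 over all genes, and came to -0.054 without Untreated_161 and to 0.11 without X10_100. With the transcript length covariate described further on, 13 members were higher and 21 lower, with a median of -0.030. Epithelial markers were higher by estimate in 3 of 11, with a median of -0.54 and 0 called.

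IGF1 against vehicle gave 28 members with a higher estimate (53.4% of all genes), 0 called (0.00598% of all genes) and 0 at an unadjusted p under 0.05 (8.84% of all genes). Kif15 had the smallest p (0.40, SE 0.22, interval -0.042 to 0.85, adjusted p = 0.64), and Cenpf the smallest of those lower (-0.20, interval -0.66 to 0.26, adjusted p = 0.89). The median over members was 0.12, beside 0.015 over all genes. It came to 0.038 without IGF1_135, to 0.23 without IGF1_160 and to -0.11 with marker scores as covariates. Epithelial markers were lower in the same comparison by estimate, 11 of 11 with a median of -2.27 and 0 called (limma adjusted p of 0.21 at the smallest). The covariate fit held the epithelial, leukocyte, adipocyte and skeletal muscle scores together, so the epithelial part alone was not tested.

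**Figure D2:**
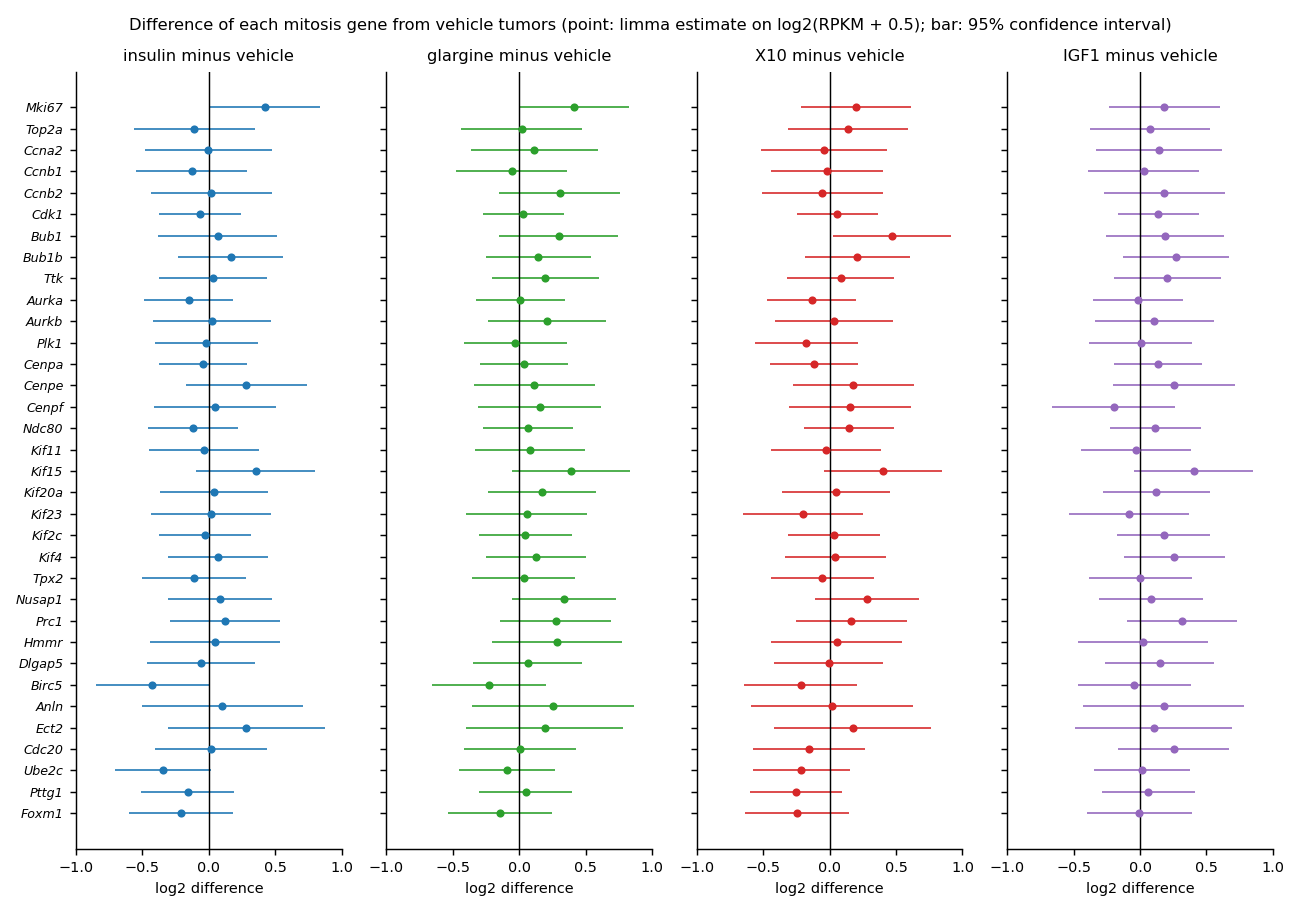
Log2 difference from vehicle tumors for each of the 34 genes (limma estimate on log2(RPKM + 0.5), bar: 95% confidence interval), 1 panel for each compound, 10 tumors in each group. Nearly all intervals cross 0, and all lie between -0.85 and 0.92.

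The analogues were also set against insulin, at doses the labels do not give. Glargine minus insulin was above 0 in 28 of 34 members (48.3% of all genes), none called (0% of all genes) and none at an unadjusted p under 0.05 (3.96%). Ube2c (0.26, interval -0.11 to 0.62, adjusted p = 0.99) and Cenpe (-0.17, interval -0.63 to 0.29, adjusted p = 0.99) had the smallest p in each direction, and Cenpe turned to 0.022 with the transcript length covariate described further on. X10 minus insulin was above 0 in 21 members (38.6% of all genes), with 0 called (0.102% of all genes) and 0 at an unadjusted p under 0.05 (11.3%); here these were Bub1 (0.40, interval -0.041 to 0.85, adjusted p = 0.50) and Mki67 (-0.22, interval -0.64 to 0.19, adjusted p = 0.73). IGF1 minus insulin was above 0 in 27 members (47.4% of all genes), with 0 called (0.00598%) and 0 at an unadjusted p under 0.05 (7.3%). Ube2c, which loads ubiquitin for the anaphase-promoting complex, had a difference of 0.36 (SE 0.18, interval -0.0011 to 0.72, adjusted p = 0.68), and Mki67 one of -0.24 (interval -0.65 to 0.18, adjusted p = 0.82), which came to -0.050 with the same covariate. The median over members for IGF1 minus insulin was 0.14, and came to 0.047 without IGF1_135, to 0.24 without IGF1_160 and to 0.025 with marker scores as covariates, while epithelial markers were lower by estimate in 10 of 11 (median -0.57, 0 called). For X10 minus insulin it was 0.014, with -0.028 without X10_115 and 0.11 without X10_105. Epithelial markers went the other way here, higher by estimate in 10 of 11 for X10 minus insulin (median 1.37, 0 called). In glargine minus insulin they were higher in 8 of 11 (median 0.96, 0 called). These comparisons share the insulin tumors. Ube2c shares 22.8% of its annotated exonic bases with Tnnc2, a fast muscle troponin gene on the opposite strand, and its level went with the skeletal muscle score at r = -0.225. Kif20a (29.3%, Cdc23), Kif4 (15.1%, Pdzd11), Ccna2 (12.5%, Exosc9) and Prc1 (11.1%, Rccd1) likewise share over 10% of exonic bases with a gene on the opposite strand. Whether reads of those genes enter the members' values was not tested.

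The study grouped X10 and IGF1 as the compounds with high affinity for the IGF1 receptor. In these 20 tumors against the 30 vehicle, insulin and glargine tumors, 21 of 34 members had a higher estimate (43.6% of all genes). None was called (0.155% of all genes), and 0 had an unadjusted p under 0.05 (10.5%). Bub1 had the smallest p (0.21, SE 0.14, interval -0.078 to 0.50, adjusted p = 0.67), and Kif23, the motor of the central spindle, the smallest of those lower (-0.17, SE 0.15, interval -0.46 to 0.13, adjusted p = 0.77). The median over members was 0.028, beside -0.022 over all genes, and came to -0.018 without IGF1_135 and to 0.083 without IGF1_160. Epithelial markers were lower by estimate in 10 of 11, with a median of -0.58 and 0 called. Over the 5 groups together (limma F-test), 0 members were called (0.102% of all genes), 0 were at an unadjusted p under 0.05 (13.1%), and Mki67 had the smallest p (adjusted p = 0.61).

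A p that misses the threshold does not show that groups are alike. In every contrast, the 95% confidence intervals of all 34 members lay within 1 on the log2 scale in either direction, and for X10 and IGF1 against the others within -0.46 to 0.50. Without Untreated_174 and X10_105 the count of called members was again 0 in all 9 comparisons, with the smallest adjusted p at 0.19 (Bub1, X10 minus insulin, 0.55).

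Between tumors, in contrast, each member varied by several-fold. The ratio of the highest to the lowest tumor ran from 3.08 for the centromeric histone Cenpa (29.2 RPKM in X10_100 to 89.8 in IGF1_135) to 11.2 for Ect2, the exchange factor that positions the cleavage furrow (9.48 RPKM in IGF1_160 to 106 in IGF1_135). Of the variance of a member, a median of 4.17% lay between treatment groups (0.938% for Kif11 to 11.2% for Mki67). The same median over all genes was 9.29%, and 8.16% comes from the number of groups alone.

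A mitosis score, the mean over members of the z-scored log2(RPKM + 0.5), summarises each tumor. Lowest were IGF1_160 (-1.97), X10_100 (-1.93), X10_105 (-1.69), Untreated_174 (-1.47) and Untreated_161 (-1.46). IGF1_160 held the lowest value of 15 members, Mki67, Cenpf and Kif11 among them, and X10_100 that of 9. Highest was IGF1_135 (1.71), with the highest value of 11 members and a place among the top 5 tumors for 30 of 34. The extremes thus came from several treatments. The 10 highest tumors were 2 vehicle, 1 insulin, 3 glargine, 2 X10 and 2 IGF1, and the 10 lowest 2, 3, 2, 2 and 1 in that order. The group means were -0.10 ± 0.86 in vehicle, -0.12 ± 0.49 in insulin, 0.13 ± 0.67 in glargine, -0.055 ± 1.01 in X10 and 0.14 ± 0.99 in IGF1 tumors (SD, n = 10 each), so the groups differed by less than the spread within any of them.

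**Figure D3:**
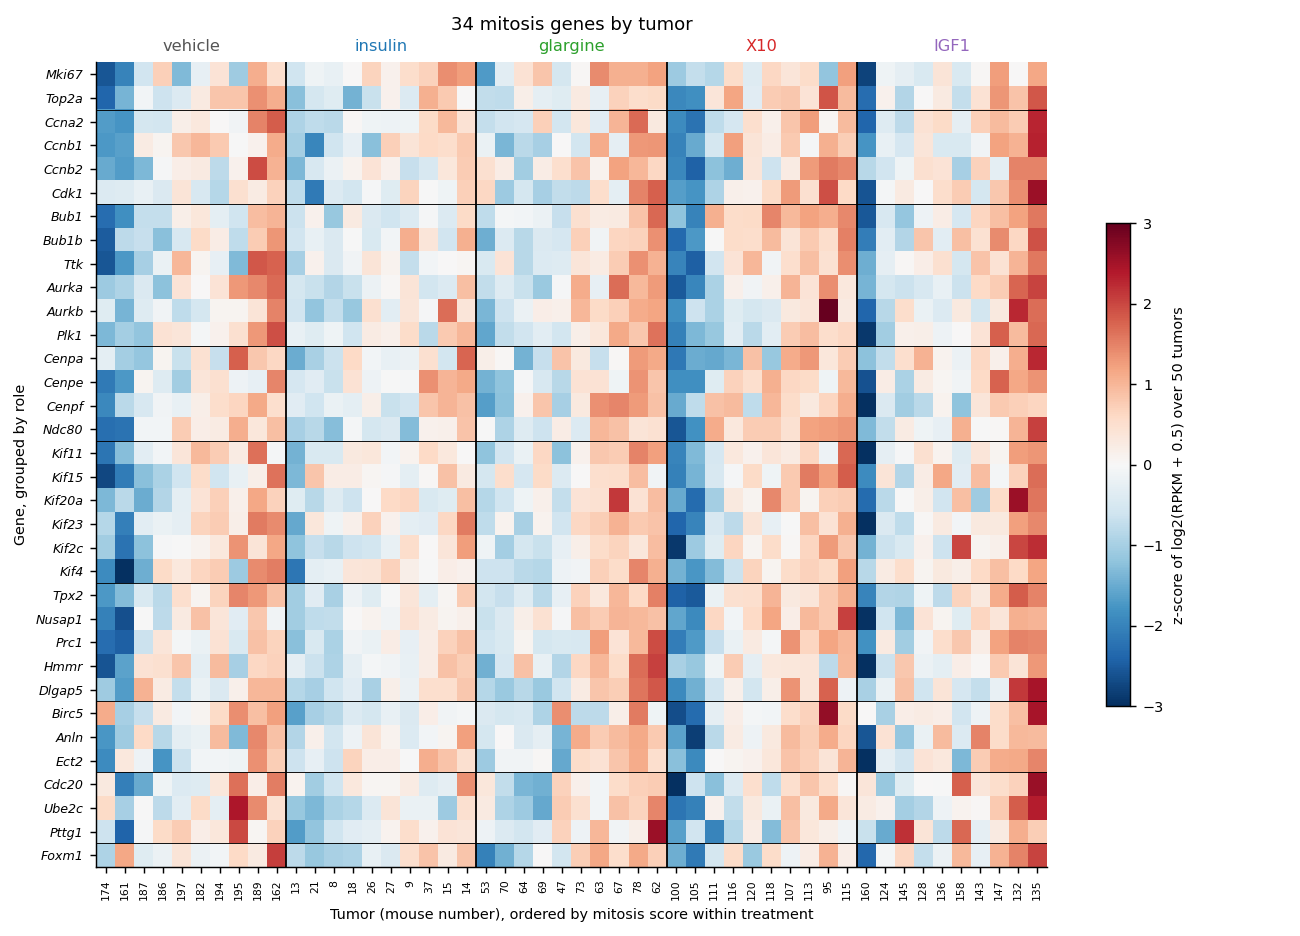
z-scores of log2(RPKM + 0.5) over 50 tumors (colour, scale ending at 3 on either side) for the 34 genes in rows by role and the tumors in columns, ordered by mitosis score within each treatment. Most genes of a column share a colour: all 34 lie below their mean in X10_100 and above it in IGF1_135, and 31 lie below it in Untreated_174 and in IGF1_160, the exceptions being Birc5, Cdc20 and Ube2c. Each treatment holds low and high columns.

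The members moved together over tumors. All 561 pairs correlated above 0 in log2(RPKM + 0.5), with a mean Pearson r of 0.64 (0.13 to 0.89, n = 50), against 0.026 between genes tested at large. The mean was 0.66 after centring within treatments, and within single treatments it ran from 0.53 in insulin to 0.75 in X10 tumors. The tightest pairs were Aurka with its activator Tpx2 (0.89) and Bub1 with Nusap1 (0.88), which binds spindle microtubules. Against the mean of the other 33, Tpx2 (0.91), Ccna2 (0.91) and Prc1 (0.90) were closest. Pttg1 (0.54), Cdc20 (0.61), Birc5 (0.64) and Ube2c (0.64) were loosest, and of all pairs Mki67 with Ube2c was the weakest (0.13). By role, the mean r was 0.72 among the kinases and checkpoint genes, 0.71 among spindle-associated genes, 0.70 among kinesins, 0.67 among cyclins and CDK1, 0.57 among centromere genes and 0.51 in the cytokinesis group. These points share libraries and are given as a description.

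**Figure D4:**
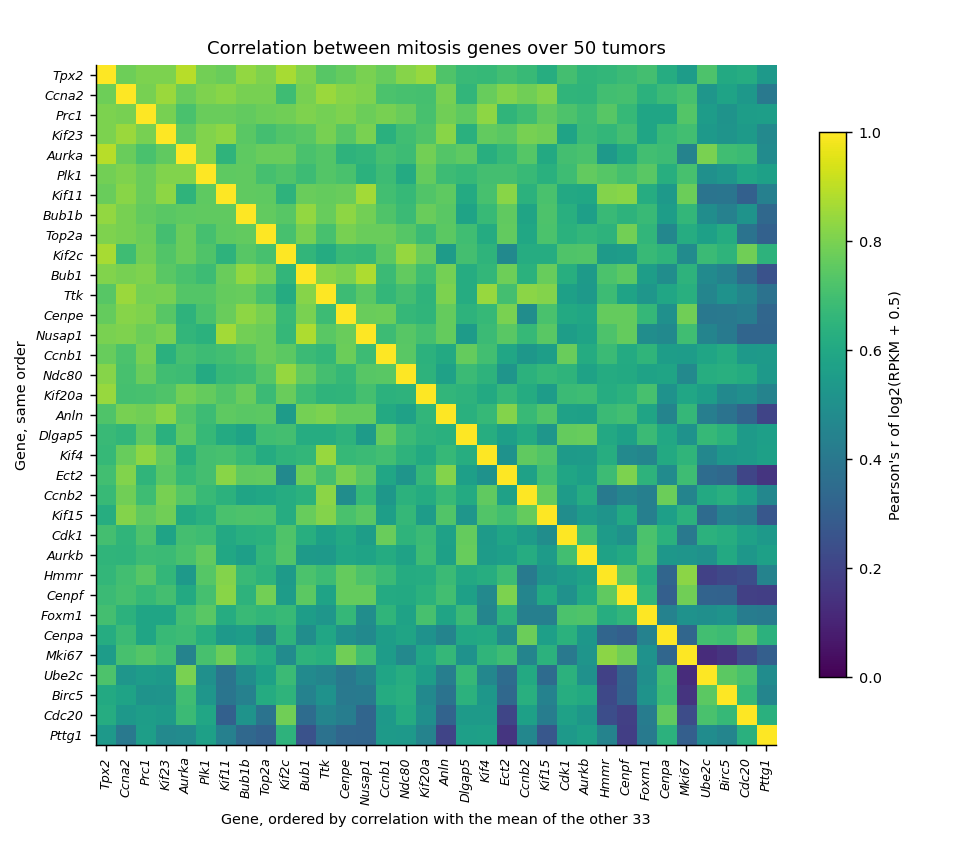
Pearson's r of log2(RPKM + 0.5) over 50 tumors between each pair of the 34 genes, ordered on both axes by correlation with the mean of the other 33 (0.91 for Tpx2 to 0.54 for Pttg1). The darkest cells are those of Ube2c, Birc5, Cdc20 and Pttg1 with Mki67, Cenpf, Hmmr and Ect2, the weakest being Mki67 with Ube2c at 0.13.

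The members also divided by transcript length, which was noticed after the values were seen. The 10 members with the shortest longest transcript (1531 to 2871 bases, Ccnb2, Pttg1, Cdc20, Aurka, Aurkb, Ube2c, Plk1, Ccnb1, Kif2c and Ttk) had a mean r of 0.63 with each other. The 10 longest (4414 to 11130 bases, Dlgap5, Anln, Foxm1, Kif11, Kif15, Kif4, Top2a, Cenpe, Mki67 and Cenpf) had 0.67, and pairs across the classes 0.57. For each tumor, the rank correlation of gene z-scores with transcript length was then taken over the 16517 other genes tested, and it ran from -0.46 to 0.41. The difference in mean z-score between short and long members went with it at r = -0.82 (rho = -0.79, n = 50; -0.79 without the 2 farthest tumors, -0.81 after centring, and -0.91 to -0.55 within treatments). Tumors in which long transcripts ran high among the other genes thus had the long members, a class with Mki67 and Cenpf, high relative to the short ones, a class with Cdc20 and Ube2c. The mitosis score itself was related to it at r = 0.19.

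This length measure had a mean of -0.023 ± 0.16 in vehicle, 0.11 ± 0.13 in insulin, -0.046 ± 0.21 in glargine, 0.094 ± 0.16 in X10 and -0.032 ± 0.26 in IGF1 tumors (SD, n = 10 each). Over the 34 members, log2 differences correlated with transcript length at rho = 0.37 for insulin and 0.48 for X10 against vehicle, beside 0.21 and 0.25 over the other genes. The sign was opposite for glargine (-0.39) and IGF1 (-0.38) against insulin, beside -0.27 over the other genes in both, and the remaining comparisons ran from 0.028 to 0.23. With the measure as a covariate, Mki67 in insulin against vehicle tumors was at 0.25 (interval -0.12 to 0.61, adjusted p = 0.71), Birc5 at -0.34 (adjusted p = 0.65) and Bub1 in X10 against vehicle at 0.34 (adjusted p = 0.72), and no member was called. For Mki67 in IGF1 against insulin tumors the interval was -0.41 to 0.31 (adjusted p = 0.99). Under this fit the members with a higher estimate than in vehicle tumors numbered 11 for insulin (54.2% of all genes), 13 for X10 (42.2%), 28 for glargine (54.4%) and 28 for IGF1 (53.6%). Against insulin they numbered 33 for glargine (50.5% of all genes), 21 for X10 (38.7%) and 32 for IGF1 (48.9%). What moves the measure was not tested.

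Other genes of the cell cycle were described from fixed lists. Other mitotic machinery (73 genes) followed the mitosis score at r = 0.99, cell cycle entry and brakes (33 of 34 tested) at 0.85, DNA replication genes (42) at 0.82 and subunits and partners of the anaphase-promoting complex (17) at 0.64, all with n = 50 and shared libraries. The last ranged from 0.26 within IGF1 to 0.89 within X10 tumors and was 0.56 without its 2 farthest tumors. For the other lists the lowest r within a treatment was 0.74 (DNA replication, glargine). Within the lists, the mean pairwise r was 0.50 for other mitotic machinery and 0.40 for DNA replication, but 0.087 for cell cycle entry and brakes (-0.68 to 0.83) and 0.115 for the anaphase-promoting complex (-0.59 to 0.83), beside 0.026 between genes tested at large. No gene of these lists was called in any comparison. Between X10 and IGF1 tumors and the remaining 30, the gene with the smallest p was Oip5 (0.20, adjusted p = 0.49), which helps load centromeric histone, in the first list, and Anapc4 (0.125, adjusted p = 0.43) among anaphase-promoting complex genes. Pcna, the replication clamp (0.17, adjusted p = 0.42), and E2f4, a repressor of cell cycle genes (-0.20, adjusted p = 0.43), were those of the other lists. Over all 5 groups, the replication licensing factor Cdt1 had an adjusted p of 0.19, Anapc11 of 0.22, the cell cycle inhibitor gene Cdkn2a of 0.24 and Cenpw of 0.39 (limma F-test). Cdt1 had a median of 15.9 RPKM in vehicle (10.2 to 24.7) and 10.9 in X10 tumors (7.87 to 12.6), and both ranges overlapped.

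Of all genes outside the list, Fam83d, which brings a kinase to the spindle (rho = 0.88), Kntc1 of the kinetochore (0.88) and Plk4, the kinase of centriole duplication (0.86), followed the mitosis score most closely. Next came Melk (0.85), Ncapg of the condensin complex (0.84), Racgap1 of the central spindle (0.84), Mcm10 of DNA replication (0.84), Ckap2l (0.83), the phosphatase Cdc25c (0.83) and the histone methyltransferase Suv39h2 (0.83). Of the top 10, 6 were in the list of other mitotic machinery. Running the opposite way were Gnptg (-0.71), Wnt4 (-0.64), Gpr108 (-0.63) and Sh2d3c (-0.62).

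Among cell type markers, the epithelial score ran against the mitosis score at r = -0.48 (rho = -0.43, n = 50; -0.34 without the 2 farthest tumors, -0.51 after centring, and -0.77 to -0.29 within treatments). Of the 5 tumors lowest in mitosis score, Untreated_174, X10_105, Untreated_161 and X10_100 had epithelial scores of 2.58, 1.92, 0.94 and 0.77, while IGF1_160 was at -0.60. The mesenchymal score was at r = 0.25, which fell to 0.073 without its 2 farthest tumors and ran from -0.46 to 0.59 within treatments. Leukocyte (-0.092), adipocyte (0.11), skeletal muscle (-0.10) and endothelial (0.037) scores and library size (-0.055) lay near 0 over all 50 tumors, but within single treatments they ranged widely, from -0.78 to 0.21 for leukocyte, -0.26 to 0.79 for adipocyte, -0.50 to 0.29 for skeletal muscle, -0.52 to 0.62 for endothelial scores and -0.37 to 0.32 for library size (n = 10 each). The share of the epithelial relation that comes from cell composition was not tested.

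**Figure D5:**
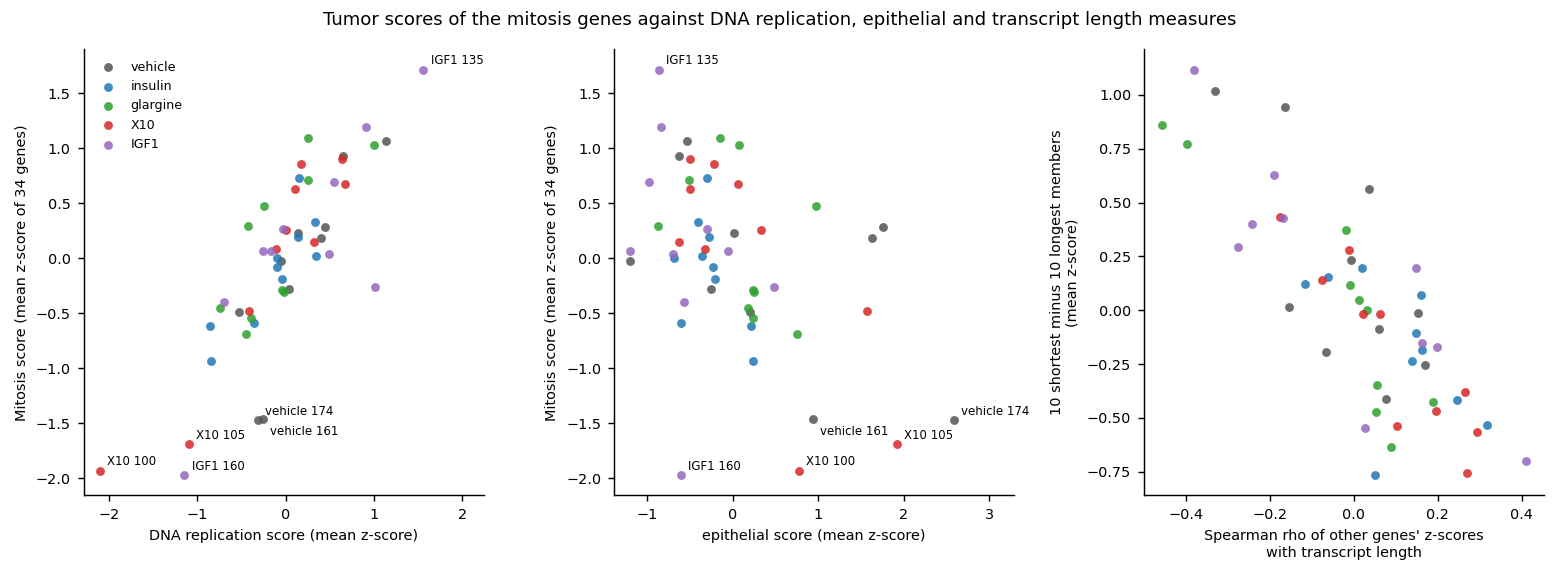
Each point is 1 of 50 tumors, coloured by treatment: mitosis score (mean z-score of 34 genes) against a DNA replication score (left, r = 0.82) and an epithelial score (middle, r = -0.48), and the 10 shortest minus the 10 longest members (mean z-score) against each tumor's Spearman rho of other genes' z-scores with transcript length (right, r = -0.82). Labelled points give treatment and mouse number (Untreated tumors as vehicle), and the treatments intermix in all panels.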

How the data were processed

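Tumor RNA was sequenced from 50 mice, 10 in each of 5 treatments taken from the sample labels. Per the submitters' processing notes the tools were TopHat2 2.0.10 and Bowtie2, HTSeq 0.6.1 and DESeq2 1.2.10 on GRCm38. The authors deposited RPKM values, 1 column per tumor. These are not counts, so log2(RPKM + 0.5) was tested with limma 3.58.1 (R 4.3.3, intensity trend, all 5 groups in 1 fit), for genes whose RPKM averaged 0.5 or more, with Benjamini-Hochberg adjustment and a threshold of 0.05. A fold change on this scale understates that of low genes. Whole reads were recovered from the steps between low RPKM values (at least 95.8% of low values came out whole in each library), which gave library sizes and reads for limma voom, and a length for 16431 of 16733 genes tested, all but Mki67 and Cenpe among the members. Levels between genes were rescaled to the longest transcript of the annotation. The 34 members and all lists were chosen with earlier results of these data known. Group values were given for 10 fixed members and those of highest and lowest mean RPKM. In each comparison the member with the smallest unadjusted p in each direction was named, for the F-test the member with the smallest p, and for each related list the gene with the smallest p in 2 of the comparisons. Outside the members, the 10 genes with the highest and the 5 with the lowest rho with the mitosis score were to be named, of which 1 is not reported here. Bub1 values by tumor, the scores of single tumors, shared exons and the transcript length measure were chosen after the values were seen. The scripts were tested on simulated data. Alternatives were the pseudocount, the filter, normalization, variance model, samples, voom, covariates and leaving out each tumor. Promoter sequences are from RefSeq (GRCm38.p6). Figures used matplotlib 3.10.9.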

Additional observations from a re-analysis of the deposited data

Results flagged for a closer look

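In 13 of 175 sets of 10 tumors, each a member gene or the mitosis score within 1 treatment, the highest or lowest tumor stood far from its nearest neighbour, with a gap above Dixon's 95% critical share of the whole log2 range. Chance flags about 5 per 100. IGF1_160 was the low tumor for 5 members: Mki67 (0.573 of the range, 6.88 RPKM), Cenpf (0.535, 7.12 RPKM), Kif11 (0.65, 2.76 RPKM), Kif23 (0.521, 3.82 RPKM) and Hmmr (0.588, 5.48 RPKM). From the insulin group, insulin_13 was the low tumor for the kinesins Kif11 (0.478, 5.83 RPKM), Kif15 (0.473, 2.25 RPKM) and Kif4 (0.655, 27.8 RPKM). In their own groups, insulin_21 was low for Cdk1 (0.48, 62.8 RPKM), glargine_64 for Ccnb2 (0.508, 18.3 RPKM) and X10_100 for Cdc20 (0.48, 16.8 RPKM). On the high side stood X10_95 for Aurkb (0.544, 88.1 RPKM) and glargine_62 for Pttg1 (0.503, 38.4 RPKM).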

How the results depend on the processing

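No member was called in any comparison under any alternative run, leaving out each of the 50 tumors included, but Kif15 was not tested at a mean RPKM of at least 5, nor Mki67 and Cenpe by voom. The smallest adjusted p was 0.19 (Bub1, X10 minus insulin, without Untreated_174 and X10_105), and 0.20 among fits without 1 tumor (X10 against vehicle, without X10_105). Median differences over the members were small and crossed 0 in several comparisons: -0.15 to 0.084 for insulin, -0.0041 to 0.16 for glargine, -0.054 to 0.11 for X10 and -0.11 to 0.23 for IGF1 against vehicle, and -0.018 to 0.083 for X10 and IGF1 against the others. Against insulin they were 0.056 to 0.18 for glargine, -0.028 to 0.12 for X10 and 0.025 to 0.24 for IGF1. The lowest values for insulin and IGF1 against vehicle came with marker scores as covariates. With the transcript length measure as a covariate, Cenpe in glargine against insulin tumors turned from -0.17 to 0.022 (adjusted p = 0.996 by limma). The fits without Untreated_174 and X10_105 and with the length covariate were chosen after seeing the data. A fit on only the groups compared was not run for X10 and IGF1 against the others or for the F-test, which use all groups. No paired analysis was possible because mouse numbers name single mice and are not shared between groups. With 10 tumors a group, SEs were 0.15 to 0.30 between single groups and 0.099 to 0.20 for X10 and IGF1 against the others.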
